A study of Mus musculus with 12 samples.

Results

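The miR-30 family comprised 11 of the 1042 mature miRNAs in the deposited table, chosen by name as every arm of miR-30a to miR-30e that the table holds. They were 5 arms from the 5′ side of the hairpin (mmu-miR-30a-5p, mmu-miR-30b-5p, mmu-miR-30c-5p, mmu-miR-30d-5p and mmu-miR-30e-5p) and 6 from the 3′ side (mmu-miR-30a-3p, mmu-miR-30b-3p, mmu-miR-30c-1-3p, mmu-miR-30c-2-3p, mmu-miR-30d-3p and mmu-miR-30e-3p). The prefix mmu, for mouse, is mostly left out hereafter. Small RNAs had been sequenced in 12 libraries. There were 3 libraries of mouse embryonic fibroblasts (MEFs; background C57B6/129SvJae F1) and 3 of embryonic stem cells (ESCs; line E14, background 129/ola). The reprogrammed cells had 2 libraries for each type, all with the C57B6/129SvJae F1 background and derived from the same MEF line. NT-ESCs came from oocytes that had received the nucleus of a MEF and NT-iPSCs from oocytes that had received that of an iPSC. The iPSCs themselves had been made with lentiviral vectors, inducible by doxycycline (dox), for c-Myc, Klf4, Oct4 and Sox2. Each type was 1 cell line and its replicates were batches of RNA, so p-values measure the spread between batches and not between lines. All pluripotent cells were grown on irradiated MEF feeders, and ESCs differed from the other cells in strain as well as in type, which cannot be told apart.

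A miRNA hairpin is cut into a duplex of a 5p and a 3p strand, and usually one strand is kept in Argonaute while the other is degraded. The strand that is kept pairs with messenger RNAs mainly through its seed, the bases at positions 2 to 8, so arms with the same seed can share targets. The miR-30 5p arms are abundant in many differentiated tissues, among them heart and kidney, whereas mouse pluripotent cells are known for the miR-290 and miR-302 clusters.

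The mature sequences are shown because the 5p arms shown share a seed and a pair of them differs at a single base. Sequences are from RefSeq (GRCm38.p6), which gave 7 of the 11 members, with the seed in capitals. miR-30b-5p, 30b-3p, 30d-5p and 30d-3p are named only. The first 3 lines are 5p arms with the seed GUAAACA, followed by 2 3p arms with UUUCAGU and 2 with UGGGAGA.
miR-30a-5p: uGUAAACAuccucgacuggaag
miR-30e-5p: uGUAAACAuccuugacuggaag
miR-30c-5p: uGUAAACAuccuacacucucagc
miR-30a-3p: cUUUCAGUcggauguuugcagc
miR-30e-3p: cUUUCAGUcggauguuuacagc
miR-30c-1-3p: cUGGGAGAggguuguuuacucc
miR-30c-2-3p: cUGGGAGAaggcuguuuacucu

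Counting positions from 1 at the 5′ end, miR-30a-5p and miR-30e-5p differed by C13U alone and miR-30a-3p and miR-30e-3p by G18A alone. The 3p arms of the miR-30c hairpins differed by G9A, U12C and C22U. Reads of such near-identical arms can be assigned to one another if mismatches are allowed, and the mapping rule is not given in the sources used here. Among the 1679 mature miRNAs of the RefSeq table, 1 other carried the seed UGGGAGA, miR-6958-5p (not analysed here), and 0 others carried UUUCAGU. The miR-30b and miR-30d arms have no sequence there, so these counts do not tell whether they carry any seed named here. The seed GUAAACA was carried by 1 other, miR-384-5p (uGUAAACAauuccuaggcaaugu). It had 17 to 28 reads in MEFs, 0 to 2 in ESCs, and in the reprogrammed cells 2 to 14. In the same groups miR-30a-5p had 51568 to 65536, 49420 to 59889 and 19139 to 31362 reads.

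The 6 hairpins lie in 3 pairs (GENCODE M21, GRCm38). Mir30a (chr1:23272269-23272339, plus strand) overlapped no other annotated gene, and Mir30c-2 (chr1:23291701-23291784, plus strand), 19361 bases further on, lay in an exon of the long non-coding RNA gene Gm27028. Mir30e (chr4:120772606-120772697, minus strand) and Mir30c-1 (chr4:120769534-120769622, minus strand) were 2983 bases apart, both in introns of Nfyc, which encodes a subunit of the CCAAT-binding factor NF-Y. Mir30d (chr15:68341208-68341289, minus strand) and Mir30b (chr15:68337415-68337510, minus strand) were 3697 bases apart, the former in exons of Gm20732, a long non-coding RNA gene, and of Gm37296, annotated as to be experimentally verified (TEC), and the latter in an exon of Gm26621, annotated as a processed transcript. miR-30c-5p is the same sequence from Mir30c-1 and Mir30c-2, so its reads cannot be divided between those hairpins.

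The deposited values are the authors' variance-stabilized, library-size-corrected reads in log2 units, here called VST. Solving the transformation for the read number returned whole reads, and the libraries held 4863365 to 8608689 miRNA reads. CPM stands for reads scaled to a library of 1e+06 miRNA reads, and 3 reads correspond to 0.348 to 0.617 CPM, which covers counting error only. The authors' size factors were 1.14 to 1.44 for reprogrammed cells, 0.761 to 0.818 for MEFs and 0.886 to 0.998 for ESCs. Replicate libraries differed by more than counting error, and chi-square over degrees of freedom was 51.5 to 388. The 9 listed pluripotency miRNAs (miR-290 and miR-302 clusters) summed to 73655 to 89025 CPM in ESCs, whereas reprogrammed cells had 115262 to 184029 and MEFs 0.869 to 9.06. In MEFs 4 of the 9 had at most 3 reads in every library. The 6 measured of 7 listed fibroblast miRNAs ranged as a sum from 61671 to 91586 CPM in MEFs and from 39084 to 43621 in ESCs. Reprogrammed cells had 11228 to 36689 CPM, of which miR-199a-3p alone gave means of 10254 to 31280 in the 3 types, above its means of 1530 in ESCs and 8789 in MEFs. miR-143-3p, a miRNA of mesenchymal cells, accounted for most of that sum in ESCs, with a mean of 38725 CPM against 58744 in MEFs and 1433 to 2965 in the reprogrammed types.

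The family was least abundant in reprogrammed cells, and the order of MEFs and ESCs depended on the scaling. As a share of all miRNA reads it was highest in ESCs. The 5 arms of the 5p side together took 1.94%, 2.15% and 1.78% of the reads in MEF replicates 13, 14 and 15, and 3.37%, 3.35% and 3.17% in ESC replicates 2, 3 and 4. The share was 0.657% and 0.768% in NT-iPSCs, 0.637% and 0.659% in NT-ESCs, and 0.838% and 0.792% in iPSCs. All 6 reprogrammed libraries were below every MEF library, and by this share all MEF libraries were below every ESC library. Divided by the authors' size factors, the summed 5p reads were instead 219810, 207009 and 180962 in MEFs, 185226, 193928 and 172853 in ESCs, and 32594 to 46226 in reprogrammed cells. MEFs and ESCs then overlapped, with the higher mean in MEFs, and the reprogrammed libraries were again below all others.

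Reprogrammed cells differed from ESCs by -2.57 percentage points (exact two-sided permutation test, p = 0.0119, the least possible with 84 arrangements, Benjamini-Hochberg adjusted p = 0.0357 over 3 comparisons). MEFs differed from ESCs by -1.34 points, with an exact permutation p of 0.1 (adjusted p = 0.15), the smallest that 3 libraries against 3 can give. Between MEFs and the 9 pluripotent libraries pooled the test was not passed, with 1.96% ± 0.186 (SD, n = 3) against 1.58% ± 1.29 (SD, n = 9). The pluripotent libraries lay on both sides of the MEFs (exact permutation p = 0.645, adjusted p = 0.645). With the authors' size factors, a scaling added after the values were seen, the differences in log2 of the summed reads were -2.31 between reprogrammed cells and ESCs (exact permutation, adjusted p = 0.0357), 0.14 between MEFs and ESCs (adjusted p = 0.3) and 1.68 between MEFs and the pluripotent libraries (adjusted p = 0.0545). Leaving out any 1 of the 9 ESC and reprogrammed libraries, the share of reprogrammed cells minus that of ESCs was -2.64 to -2.54 points and missed the threshold each time (exact permutation, adjusted p = 0.0536 to 0.107). Every reprogrammed library stayed below every ESC library, so each exact p was the least possible with the arrangements left. These misses were therefore fixed by the number of libraries and comparisons.

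**Figure D1:**
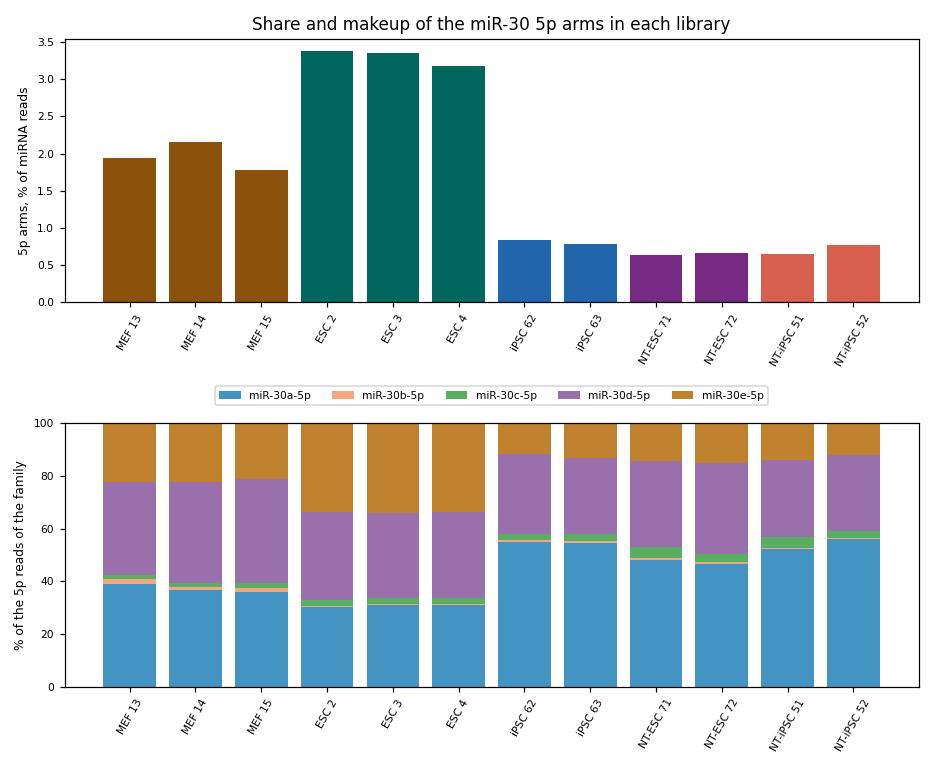
Upper bars give the 5 miR-30 5p arms together as a percent of all miRNA reads in each library, and lower bars divide those reads among the 5 arms in percent. The ESC libraries reach 3.37% and the reprogrammed libraries stay at or below 0.838%, and miR-30e-5p takes 33.8% of the 5p reads in ESCs but 13.3% in reprogrammed cells.

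The makeup of the 5p reads also differed between the cell types, a comparison within each library that size factors do not touch. In ESCs, miR-30e-5p, 30d-5p and 30a-5p held nearly equal parts, with means of 33.8% ± 0.0835, 32.7% ± 0.402 and 30.8% ± 0.352 (SD, n = 3). In MEFs miR-30d-5p (37.8% ± 2.26) and miR-30a-5p (37.3% ± 1.69) led and miR-30e-5p made up 21.9% ± 0.642 (SD, n = 3). In reprogrammed cells miR-30a-5p alone took 52.1% ± 3.98 and miR-30e-5p 13.3% ± 1.27 (SD, n = 6). miR-30b-5p and miR-30c-5p were minor in every type, from 0.403% to 1.72% and from 1.40% to 4.30% of the 5p reads.

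Each of the abundant 5p arms was lower in reprogrammed cells. mmu-miR-30e-5p had VST values of 17.69, 17.59 and 17.33 in MEFs and 18.04, 18.11 and 17.94 in ESCs. It had 14.55 and 14.55 in NT-iPSCs, 14.31 and 14.52 in NT-ESCs, and 14.01 and 14.30 in iPSCs. The reprogrammed libraries lay below all others, and the difference of the 6 reprogrammed libraries from the 3 ESC libraries was -3.66 ± 0.118 (SE, limma, adjusted p = 1.30e-10) and from MEFs -3.16 ± 0.118 (limma, adjusted p = 2.33e-10).

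mmu-miR-30d-5p had 18.35, 18.39 and 18.24 in MEFs, 18.02, 18.05 and 17.88 in ESCs, 15.65 and 15.81 in NT-iPSCs, 15.52 and 15.70 in NT-ESCs, and 15.37 and 15.42 in iPSCs. Reprogrammed cells differed from ESCs by -2.41 ± 0.10 (SE, limma, adjusted p = 1.07e-09). mmu-miR-30a-5p, which differs from miR-30e-5p at 1 base, was lower by a smaller amount. Its values were 18.50, 18.32 and 18.10 in MEFs, 17.89, 17.98 and 17.82 in ESCs, 16.47 and 16.77 in NT-iPSCs, 16.08 and 16.14 in NT-ESCs, and 16.24 and 16.35 in iPSCs. The difference from ESCs was -1.55 ± 0.120 (SE, limma, adjusted p = 2.22e-07). Within libraries, miR-30e-5p minus miR-30a-5p was 0.124 to 0.152 in ESCs, -0.813 to -0.729 in MEFs and -2.23 to -1.62 in reprogrammed cells, ranges that do not overlap. This pair was picked out after its values were seen and was not tested.

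Among the less abundant 5p arms, miR-30c-5p had 13.83, 13.60 and 13.70 in MEFs, 14.20, 14.16 and 14.09 in ESCs, 12.76 and 12.33 in NT-iPSCs, 12.60 and 12.35 in NT-ESCs, and 11.70 and 12.12 in iPSCs. The difference of reprogrammed cells from ESCs was -1.84 ± 0.137 (SE, limma, adjusted p = 1.75e-07). miR-30b-5p was highest in MEFs, with 13.99, 13.46 and 13.61, and had 11.66, 12.03 and 11.72 in ESCs. It had 10.12 and 9.66 in NT-iPSCs, 10.20 and 10.04 in NT-ESCs, and 9.78 and 9.79 in iPSCs, so that MEFs, ESCs and reprogrammed cells formed separate ranges. The difference from ESCs was -1.87 ± 0.160 in reprogrammed cells (SE, limma, adjusted p = 5.55e-07) and that from MEFs was -3.76 ± 0.160 (limma, adjusted p = 7.21e-10).

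**Figure D2:**
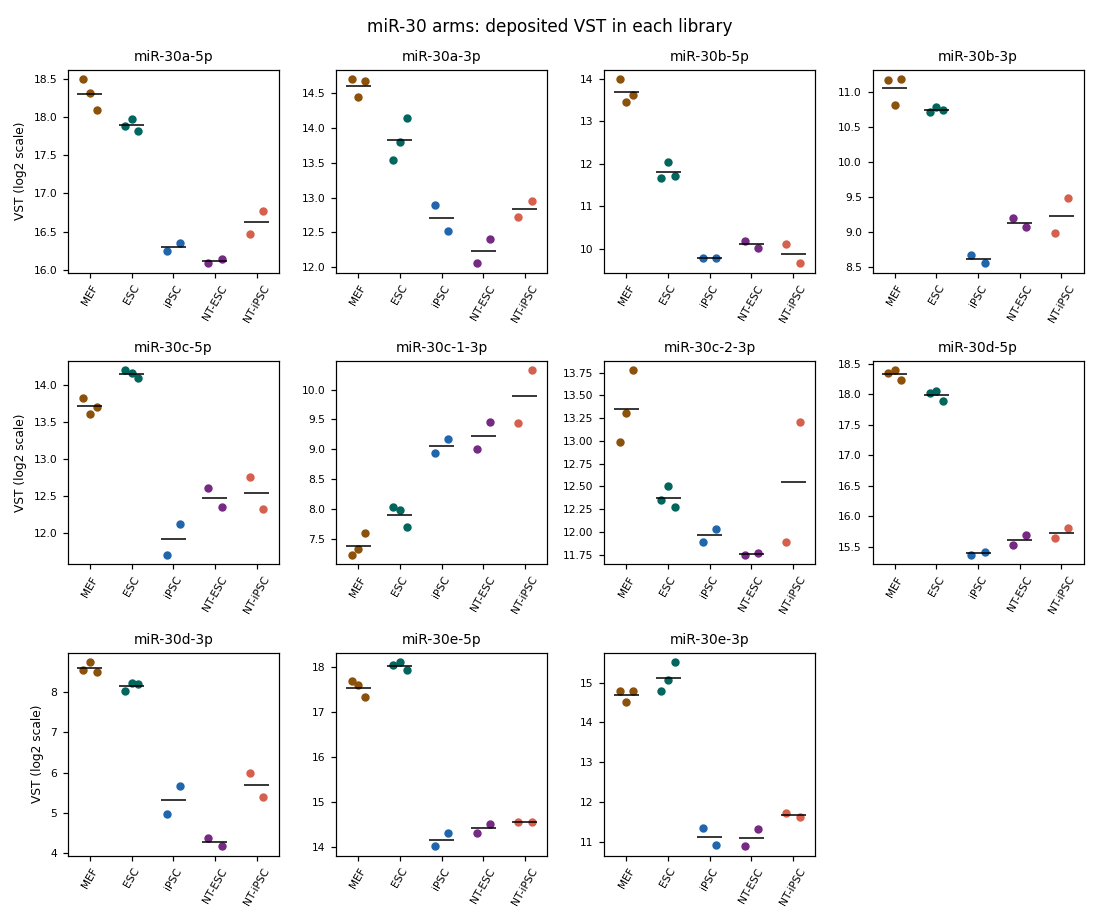
Each point is the deposited VST value (log2 scale) of 1 library, with a panel for each of the 11 arms and a line at each group's mean, and the vertical axes differ between panels. In 9 of 11 panels all reprogrammed libraries lie below the MEF and ESC libraries (of all 732 miRNAs tested, 34.4% lie below every ESC library and 35.9% below every MEF library), miR-30c-1-3p is the panel in which they lie above, and for miR-30c-2-3p NT-iPSC replicate 52 reaches 13.21.

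Most 3p arms were also lower in reprogrammed cells. mmu-miR-30e-3p had 14.78, 14.51 and 14.78 in MEFs, 14.78, 15.05 and 15.52 in ESCs, 11.74 and 11.62 in NT-iPSCs, 10.90 and 11.33 in NT-ESCs, and 11.35 and 10.92 in iPSCs. Its difference of -3.81 ± 0.179 from ESCs (SE, limma, adjusted p = 2.73e-09) stood beside that of -3.66 for its 5p partner. miR-30a-3p (-1.24 ± 0.158, adjusted p = 1.89e-05) and miR-30b-3p (-1.76 ± 0.152, adjusted p = 6.03e-07, SE, limma) were likewise below their ESC level in reprogrammed cells. miR-30d-3p was scarce, with 53 to 81 reads in MEFs and ESCs and 4 to 17 in reprogrammed libraries, and differed from ESCs by -3.05 ± 0.234 (SE, limma, adjusted p = 2.13e-07). At so few reads the VST slightly understates a fold change.

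The 3p arms of the miR-30c hairpins departed from the others. mmu-miR-30c-1-3p had 26, 30 and 35 reads in MEFs and 53, 58 and 44 in ESCs, but 197 and 357 in NT-iPSCs, 170 and 186 in NT-ESCs, and 153 and 182 in iPSCs. Every reprogrammed library was above all others, and the arm was higher than in ESCs by 1.48 ± 0.220 (SE, limma, adjusted p = 6.91e-05) and than in MEFs by 2.00 ± 0.220 (limma, adjusted p = 3.96e-06). The latter difference was 1.59 with upper quartile scaling, 2.73 with total reads and 3.01 with voom. miR-30c-2-3p had VST values of 12.98, 13.31 and 13.77 in MEFs, 12.35, 12.51 and 12.27 in ESCs, 11.89 and 13.21 in NT-iPSCs, 11.75 and 11.76 in NT-ESCs, and 11.89 and 12.04 in iPSCs. It did not pass the test between reprogrammed cells and ESCs (-0.29, 95% interval -0.85 to 0.27; limma, adjusted p = 0.312). Without NT-iPSC replicate 52, whose 2652 reads exceeded the 1077 of replicate 51, the difference was -0.51 (limma, adjusted p = 0.0204).

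Counted over the family, 9 of the 11 members were lower and 1 higher in reprogrammed cells against ESCs. Among all 732 miRNAs tested, 38.0% were lower and 44.0% higher. The median difference was -1.84 over the members and 0.24 over all miRNAs tested. Against MEFs, 10 members were lower and 1 was higher (40.4% and 48.5% of all miRNAs tested), with medians of -2.07 and 0.40. Both comparisons share the reprogrammed libraries. Without regard to direction, reprogrammed libraries did not overlap with ESC libraries for 10 of 11 members and 520 of the 732 miRNAs tested, nor with MEF libraries for 10 of 11 members and 590 of the 732 (80.6%). The count of members that passed and their directions against ESCs were the same with upper quartile, TMM-type and total read scaling and with voom. With scaling to total reads or voom, miR-30c-2-3p no longer passed against MEFs, with differences of -0.26 in both (limma, adjusted p = 0.338 and 0.326). The other differences from MEFs of the lower members also shrank, by about 1 log2 unit or more. That of miR-30a-5p was -0.96 with total reads in place of -1.96, that of miR-30c-5p -0.39 in place of -1.40, and that of miR-30e-5p -2.15 in place of -3.16. The median over all miRNAs tested was then 1.04 with total reads and 1.38 with voom, and 65.5% and 65.3% of the calls were higher, in place of 54.5%.

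The summed level of the listed fibroblast miRNAs was lower in reprogrammed cells, as given above, but its members did not move together. Against ESCs, mean CPM was lower in all 3 reprogrammed types for miR-143-3p, 199a-5p, 214-3p and 10b-5p, and higher in all 3 for miR-199a-3p and 199b-5p (5.33 in ESCs and 5.76 to 15.3 in the reprogrammed types). Their part in the lower miR-30 values was not tested. The size factors given above were higher in every reprogrammed library than in the others, and 5p minus 3p differences changed in most of the 295 hairpins tested (80.7% against ESCs and 77.6% against MEFs). A difference in library handling between the 6 reprogrammed libraries and the other 6 cannot be told apart from the difference in cell type. Fewer cells that express a miRNA and less of it per cell cannot be told apart either in bulk RNA.

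**Figure D3:**
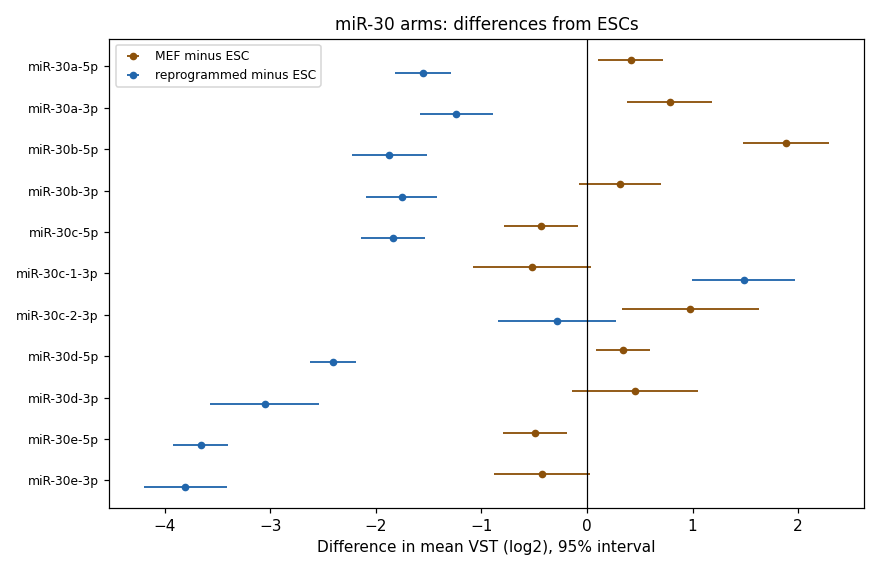
Points are differences in mean VST (log2) from ESCs with 95% intervals from the limma fit, for MEFs (n = 3) and reprogrammed cells (n = 6) against ESCs (n = 3). For reprogrammed cells the values run from -3.81 for miR-30e-3p to 1.48 for miR-30c-1-3p, and for MEFs from -0.52 to 1.89. The sizes for MEFs depend on the scaling for all 11 members and their signs for all but miR-30b-5p and miR-30c-2-3p.

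Between MEFs and ESCs, 5 of 11 members were higher in MEFs and 2 were lower (39.1% and 39.9% of all 732 miRNAs tested). The higher ones were miR-30b-5p (1.89 ± 0.185, adjusted p = 2.39e-06), 30c-2-3p (0.98 ± 0.294, adjusted p = 0.0101), 30a-3p (0.78 ± 0.182, adjusted p = 0.00219), 30a-5p (0.41 ± 0.138, adjusted p = 0.018) and 30d-5p (0.34 ± 0.116, adjusted p = 0.018, SE, limma). miR-30e-5p (-0.49 ± 0.136, adjusted p = 0.00633) and miR-30c-5p (-0.44 ± 0.159, adjusted p = 0.0258, SE, limma) were lower. The call of miR-30a-5p was lost without MEF replicate 13, that of 30d-5p without MEF replicate 14, and that of 30c-5p without MEF replicate 14 or 15 or ESC replicate 2 or 3 (limma, adjusted p = 0.0585 to 0.0780). Without ESC replicate 2, miR-30e-3p also passed, at -0.59 (limma, adjusted p = 0.027). When only MEFs and ESCs were fitted, miR-30d-3p passed too, higher in MEFs by 0.45 (limma, adjusted p = 0.0396).

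These directions depended on the scaling for 9 of the 11 members. For miR-30c-2-3p the sign was kept but the call was lost, with 0.49 with TMM-type scaling, 0.09 with total reads and 0.09 with voom (limma, adjusted p = 0.133, 0.789 and 0.789). The median difference of all miRNAs tested was 0.00 with the deposited values, 0.55 with upper quartile scaling, -0.41 with TMM-type scaling, -0.53 with total reads and -0.84 with voom. With upper quartile scaling 7 members were higher in MEFs and 0 lower, and with total reads 1 was higher and 7 lower. miR-30b-5p was higher in MEFs under each of these scalings, by 0.99 to 2.52 (limma, adjusted p at most 0.00015). In all 5 scalings it stood farthest toward MEFs among the members, and miR-30c-5p, 30c-1-3p, 30e-5p and 30e-3p stood farthest toward ESCs. With the deposited values the order of mean levels was MEFs, ESCs and then every reprogrammed type for 6 members, and ESCs, MEFs and then every reprogrammed type for miR-30c-5p, 30e-5p and 30e-3p. The libraries of MEFs and ESCs did not overlap for 10 of the 11 members, all but miR-30e-3p, and for 79.9% of all 732 miRNAs tested, which is not far from the members' share.

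**Figure D4:**
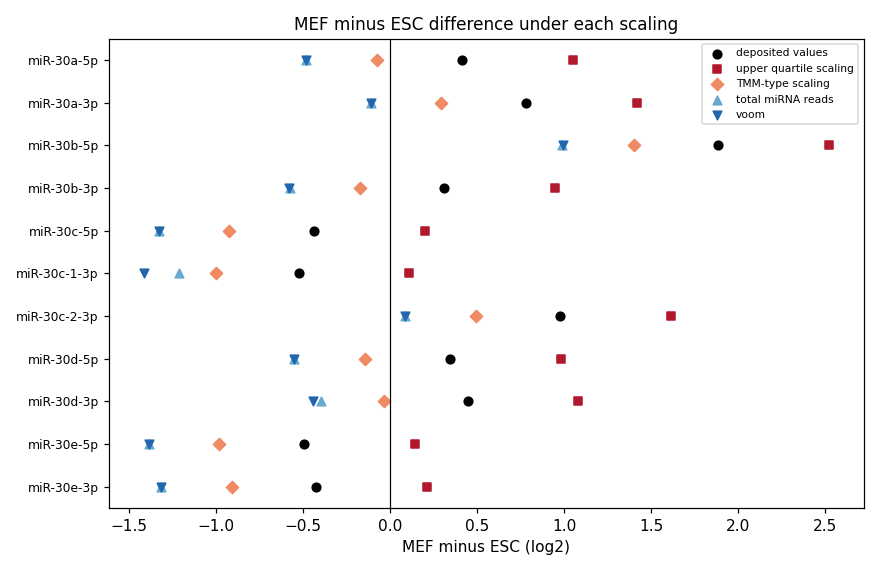
Each symbol is the MEF minus ESC difference (log2) of an arm under 1 of 5 scalings of the same reads. The symbols of an arm shift together and cross 0 for 9 arms, while miR-30b-5p stays between 0.99 and 2.52.

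The 5p arms of hairpins that are neighbours in the genome were compared within each library. The same miR-30c-5p reads, from Mir30c-1 and Mir30c-2 together, entered the comparisons with miR-30e-5p and with miR-30a-5p, so neither is a comparison of 1 hairpin pair alone and they are not independent. miR-30e-5p minus miR-30c-5p was 3.84, 3.96 and 3.85 in ESCs and 1.71 to 2.31 (median 2.18) in reprogrammed cells, so all 6 reprogrammed values were lower. The difference of -1.82 had an exact two-sided permutation p of 0.0119 (adjusted p = 0.0357 over 3 pairs). miR-30b-5p minus miR-30d-5p was -6.36, -6.02 and -6.17 in ESCs and -6.14 to -5.32 (median -5.61) in reprogrammed cells. The ranges overlapped, with a difference of 0.53 (exact permutation p = 0.0238, adjusted p = 0.0357). miR-30a-5p minus miR-30c-5p was 3.69, 3.83 and 3.73 in ESCs and 3.48 to 4.54 (median 4.01) in reprogrammed cells, with a difference of 0.29 (exact permutation p = 0.369, adjusted p = 0.369). Both comparisons that passed missed the threshold in 8 of the 9 fits that left out 1 ESC or reprogrammed library. Adjusted p was 0.0536 to 0.134 in those 8 (exact permutation). The exception was the fit without NT-iPSC replicate 52, and values over the 9 were -1.87 to -1.75 and 0.446 to 0.634. For miR-30e-5p minus miR-30c-5p the ranges stayed apart in all 9, so its exact p was always the least possible. Its passes and misses followed from the number of arrangements and the adjustment over 3 pairs.

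The balance between the arms was compared as the 5p minus the 3p VST of each hairpin in each library. Over the 12 libraries it ranged from 3.35 to 4.34 for miR-30a and from 2.42 to 3.42 for miR-30e. Between reprogrammed cells and ESCs the change was -0.31 (95% interval -0.79 to 0.16) for miR-30a, 0.15 (-0.38 to 0.68) for miR-30e and -0.11 (-0.59 to 0.36) for miR-30b, none of which passed the test (limma, adjusted p = 0.201, 0.595 and 0.643). For miR-30d the change was 0.65 (95% interval 0.01 to 1.29), which did not pass either (limma, adjusted p = 0.0592), but passed without iPSC replicate 63 (0.75) or NT-iPSC replicate 51 (0.77; limma, adjusted p = 0.0324 and 0.0312). The median absolute change over the 295 hairpins tested was 2.67.

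With its 3p arm set against the miR-30c-5p reads of Mir30c-1 and Mir30c-2 together, miR-30c-1 had the largest arm change of the 6 hairpins. This held in reprogrammed cells against ESCs and against MEFs, and the hairpin alone was not measured. Its 5p minus 3p difference was 6.60, 6.27 and 6.10 in MEFs and 6.17, 6.17 and 6.39 in ESCs, against 3.31 and 2.01 in NT-iPSCs, 3.60 and 2.88 in NT-ESCs, and 2.77 and 2.95 in iPSCs. The change from ESCs was -3.32 ± 0.288 (SE, limma, adjusted p = 2.83e-07) and from MEFs -3.40 ± 0.288 (limma, adjusted p = 2.48e-07). Over all 295 hairpins tested the median absolute change was 2.67 against ESCs and 2.40 against MEFs, and 80.7% and 77.6% passed, so a change of this kind is not particular to miR-30c-1. Of its own reads and all miR-30c-5p reads together, the 3p arm held 1.29% ± 0.110 (SD, n = 3) in ESCs. It held 14.5% ± 7.60 in NT-iPSCs, 9.73% ± 3.05 in NT-ESCs and 12.1% ± 0.904 in iPSCs (SD, n = 2 each).

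For miR-30c-2, which is paired with the same miR-30c-5p reads, the difference was 0.85, 0.30 and -0.08 in MEFs and 1.85, 1.65 and 1.82 in ESCs. It was 0.86 and -0.88 in NT-iPSCs, 0.85 and 0.58 in NT-ESCs, and -0.19 and 0.09 in iPSCs, so MEFs and reprogrammed cells overlapped. It differed from ESCs by -1.42 ± 0.379 in MEFs (SE, limma, adjusted p = 0.0143) and by -1.55 ± 0.328 in reprogrammed cells (limma, adjusted p = 7.65e-04). The call in MEFs was lost without MEF replicate 15 or ESC replicate 2 (limma, adjusted p = 0.0593 and 0.051). The changes of miR-30c-1 and miR-30c-2 are not independent, because they share the 5p value.

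miR-30b differed in MEFs, with 2.82, 2.63 and 2.42 against 0.93, 1.24 and 0.97 in ESCs, and reprogrammed cells had 0.18 to 1.23. The change from ESCs to MEFs was 1.58 ± 0.250 (SE, limma, adjusted p = 5.36e-04), and the 3p arm held 12.4% to 15.7% of both arms' reads in MEFs and 29.7% to 34.4% in ESCs. From MEFs to reprogrammed cells it changed by -1.69 ± 0.216 (SE, limma, adjusted p = 1.13e-05). miR-30d was the most one-sided hairpin, with a 3p share of 0.0283% to 0.124% over the 12 libraries. Its change from MEFs to reprogrammed cells was 0.75 ± 0.294 (SE, limma, adjusted p = 0.0326), which rested on 4 to 17 reads of miR-30d-3p and missed the threshold when any of 6 single libraries was left out (adjusted p up to 0.0792).

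In all, 2 of 6 hairpins changed between MEFs and ESCs (24.7% of the 295 hairpins tested), 2 of 6 between reprogrammed cells and ESCs (80.7%) and 3 of 6 between reprogrammed cells and MEFs (77.6%).

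**Figure D5:**
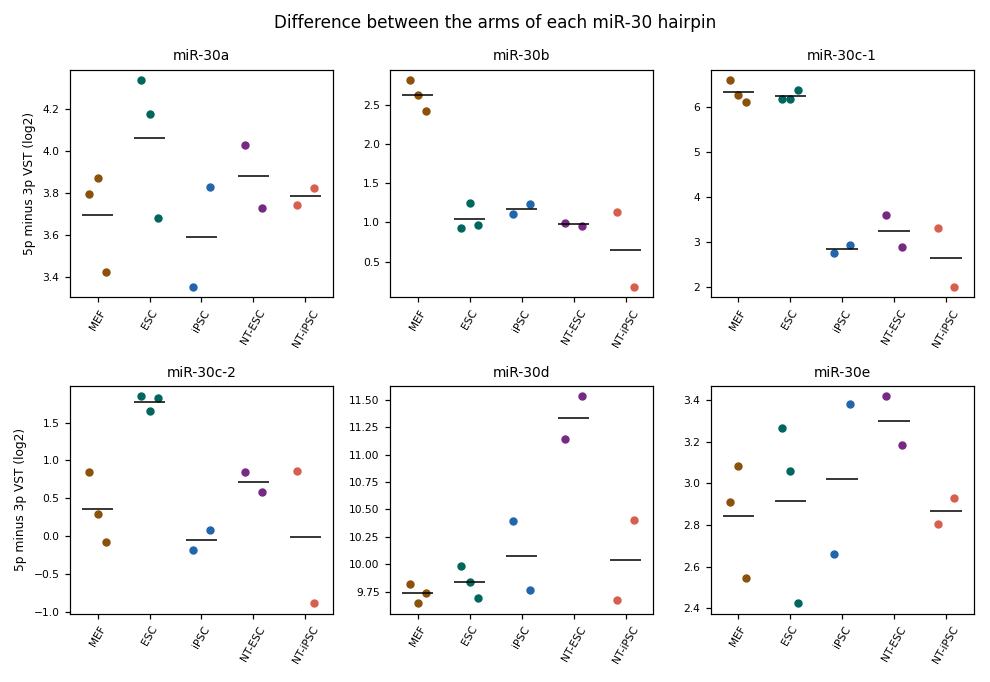
Each point is the 5p minus 3p VST difference (log2) of a hairpin in 1 library, with a line at each group's mean, and the vertical axes differ between panels. The panels of miR-30c-1 and miR-30c-2 use the same miR-30c-5p value, from both hairpins together. MEFs, ESCs and the 6 reprogrammed libraries as a whole overlap for miR-30a and miR-30e, miR-30c-1 drops from above 6 in MEFs and ESCs to at most 3.60 in reprogrammed cells, and miR-30b is highest in MEFs.

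For the abundant arms the 3 reprogrammed types lay closer to one another than to ESCs. Relative to the same ESC libraries, miR-30e-5p differed by -3.62 in NT-ESCs, -3.48 in NT-iPSCs and -3.87 in iPSCs, and miR-30a-5p by -1.78, -1.27 and -1.60. In direct comparisons 1 of 11 members passed the test each time, where 25.7% (NT-ESCs against iPSCs), 26.5% (NT-iPSCs against iPSCs) and 12.8% (NT-iPSCs against NT-ESCs) of all miRNAs tested did. miR-30d-3p, with 9 and 15 reads in iPSCs, 6 and 4 in NT-ESCs, and 17 and 11 in NT-iPSCs, differed by -1.04 ± 0.331 between NT-ESCs and iPSCs, with the lower level in NT-ESCs (SE, limma, adjusted p = 0.0406). NT-iPSCs exceeded NT-ESCs by 1.42 ± 0.331 (SE, limma, adjusted p = 0.0263). miR-30c-5p was higher in NT-iPSCs than in iPSCs by 0.63 ± 0.194 (SE, limma, adjusted p = 0.0347), and by 0.09 with total read scaling (adjusted p = 0.731). When only the groups compared were fitted, these 3 calls were lost (limma, adjusted p = 0.122, 0.0686 and 0.177). The call of miR-30d-3p between NT-ESCs and iPSCs was lost with upper quartile scaling as well (limma, adjusted p = 0.0511), where miR-30c-5p passed instead, higher in NT-ESCs by 0.63 (limma, adjusted p = 0.0344). With total reads or voom, miR-30a-5p (-0.54 in both) and miR-30a-3p (-0.83 in both) passed beside miR-30d-3p, lower in NT-ESCs (limma, adjusted p = 0.0112 to 0.0183). The median over all miRNAs tested was then -0.36 with total reads and -0.46 with voom. Those of miR-30d-3p were lost too without either NT-ESC library, and without iPSC replicate 63 or NT-iPSC replicate 51, respectively, and that of miR-30c-5p without iPSC replicate 62 or NT-iPSC replicate 51 (limma, adjusted p = 0.0908 to 0.231).

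Over the 12 libraries, the profile of the summed 5p arms (log2 of normalized reads) was followed most closely by the VST of miR-140-5p, miR-24-2-5p and miR-148a-3p among the miRNAs outside the family, with Pearson's r of 0.998, 0.995 and 0.991. The libraries fall into cell types, so r describes mainly the distance between groups. miR-140-5p had means of 14.61 in MEFs, 14.21 in ESCs and 6.15 to 6.995 in the reprogrammed types, a wider gap than that of any miR-30 arm. Within the family, r of the 5p arms to this profile is largely fixed by construction, since the profile is their sum. Of the 3p arms, which are not part of it, r was 0.923 for miR-30a-3p, 0.976 for 30b-3p, 0.968 for 30d-3p, 0.981 for 30e-3p, 0.645 for 30c-2-3p and -0.882 for 30c-1-3p.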

How the data were processed

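Small RNA of 12 libraries (MEFs 3, ESCs 3, and iPSCs, NT-ESCs and NT-iPSCs 2 each) was analysed. The authors normalized miRNA reads by size factors, applied the variance stabilizing transformation of DESeq and deposited log2 values. The submitters' notes name the build mm8, and the aligner and miRBase release are not given in the sources used here. Solving the transformation gave reads that were whole within 0.05 for 100% of nonzero values (largest deviation 0.00347). Size factors assume that most miRNAs do not change.

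limma (3.58.1, R 4.3.3) with trend was fitted to the deposited values of 732 miRNAs (2 or more libraries with 10 or more reads), with a mean per group and Benjamini-Hochberg adjustment at 0.05, and for 5p minus 3p differences to 295 hairpins. All 11 members passed this filter. Single values were tested by exact permutation of libraries. TMM-type scaling trimmed 30% of log ratios and 5% of abundances. Log2 of CPM or normalized reads used a pseudocount of 1. The scripts were tested on simulated data and used Python 3.11.15 with scipy 1.17.1. All members were named. Other miRNAs were named if they share a seed with a member, are listed markers, or are the 3 most like the summed 5p arms. Members and lists were chosen with earlier results of these data known.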

Additional observations from a re-analysis of the deposited data

Results flagged for a closer look

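Of the direct comparisons between reprogrammed types, 3 gave a member whose distance from ESCs differed between types by a test of that difference. mmu-miR-30d-3p differed by -1.04 between NT-ESCs and iPSCs (limma, adjusted p = 0.0406) and by 1.42 between NT-iPSCs and NT-ESCs (limma, adjusted p = 0.0263), with 4 to 17 reads per library. mmu-miR-30c-5p differed by 0.63 between NT-iPSCs and iPSCs (limma, adjusted p = 0.0347). None of the 3 kept its side of the threshold when the fit held only the groups compared (adjusted p = 0.122, 0.0686 and 0.177, in the order of the values above).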

How the results depend on the processing

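No paired analysis was possible because no replicate number occurs in more than 1 group. For reprogrammed cells against ESCs or MEFs, no alternative turned a member's direction, and the number that passed was 10 to 11 and 11 with a replicate left out. MEF minus ESC differences turned with the scaling. With TMM-type scaling they were -0.074 for miR-30a-5p, -0.17 for 30b-3p, -0.14 for 30d-5p and -0.032 for 30d-3p. With total reads and with voom they were -0.48 and -0.48 for 30a-5p, -0.11 and -0.11 for 30a-3p, -0.57 and -0.58 for 30b-3p, -0.55 and -0.55 for 30d-5p, and -0.40 and -0.44 for 30d-3p. With upper quartile scaling they were 0.20 for 30c-5p, 0.11 for 30c-1-3p, 0.14 for 30e-5p and 0.21 for 30e-3p. Across all miRNAs tested, the part of MEF against ESC calls that lay above ESCs was 49.5% with the deposited values, 60.4% with upper quartile scaling, 38.7% with TMM-type scaling, 30.8% with total reads and 30.6% with voom.

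Members called between NT-ESCs and iPSCs numbered 1, but 0 with TMM-type scaling or only the groups compared, 3 with total reads or voom, and 0 to 1 with a replicate left out. The count of 1 was not always the same member: with upper quartile scaling, the 100 read filter or without iPSC replicate 63 it was miR-30c-5p, higher in NT-ESCs (0.63, 0.56 and 0.77), and miR-30d-3p was lost or not tested. Between NT-iPSCs and iPSCs they numbered 1, but 2 with upper quartile scaling or the 100 read filter, 3 with no filter, 0 with TMM-type scaling, total reads, voom or only the groups compared, and 0 to 3 with a replicate left out. Between NT-iPSCs and NT-ESCs they numbered 1, but 0 with voom or only the groups compared and 0 to 1 with a replicate left out. That 1 was miR-30a-5p with the 100 read filter (0.51) and miR-30c-2-3p without NT-iPSC replicate 51 (1.46), in place of miR-30d-3p. Without NT-iPSC replicate 51, the 3 members called between NT-iPSCs and iPSCs were miR-30b-3p, 30c-1-3p and 30c-2-3p, and miR-30c-5p was not among them. Over all miRNAs tested, the higher part of the calls fell from 48.9% to 23.8% with total reads and 22.5% with voom (NT-ESCs against iPSCs), from 50.5% to 19.1% and 19.6% (NT-iPSCs against iPSCs) and from 43.6% to 26.1% and 25.8% (NT-iPSCs against NT-ESCs).

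With the authors' size factors in place of total reads, chosen after seeing the data, the MEF minus ESC difference of the summed 5p arms turned (0.14 in log2).

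With a replicate left out, the family share of reprogrammed cells minus ESCs was -2.64 to -2.54 points, miR-30b-5p minus 30d-5p 0.446 to 0.634, and miR-30e-5p minus 30c-5p -1.87 to -1.75. The exact permutation tests then mostly missed 0.05 after adjustment (adjusted p up to 0.134), with fewer arrangements left. For the family share and miR-30e-5p minus 30c-5p the groups stayed apart, so each exact p was the least possible. Arm differences called between MEFs and ESCs numbered 1 to 2, with miR-30c-2 lost without MEF replicate 15 or ESC replicate 2 (limma, adjusted p = 0.0593 and 0.051). That of miR-30d, reprogrammed against MEF, missed the threshold without MEF replicate 13, 14 or 15, iPSC replicate 62, NT-ESC replicate 72 or NT-iPSC replicate 52 (limma, adjusted p = 0.0525 to 0.0792). Of the MEF against ESC calls, that of miR-30a-5p was lost without MEF replicate 13, of 30d-5p without MEF replicate 14, and of 30c-5p without MEF replicate 14 or 15 or ESC replicate 2 or 3 (limma, adjusted p = 0.0585 to 0.0780), and miR-30e-3p passed without ESC replicate 2 (-0.59, adjusted p = 0.027). Small arm changes turned sign: MEF minus ESC ran from -0.053 to 0.19 for miR-30c-1 and from -0.32 to 0.10 for 30e, reprogrammed minus ESC from -0.27 to 0.044 for 30b and from -0.10 to 0.32 for 30e, and reprogrammed minus MEF from -0.082 to 0.14 for 30a and from -0.43 to 0.15 for 30c-2. The causes were not tested. In reprogrammed libraries miR-30d-3p had the fewest reads of the members, 4 to 17, and the 100 read filter removes it. In MEFs miR-30c-1-3p had fewer, with 26 to 35 against 65 to 81.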
